A study of Mus musculus with 18 samples.

Results

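The mitosis genes are 40 protein-coding genes whose products carry a cell from mitotic entry to cytokinesis. They were chosen by symbol, from a list of mitotic kinases, cyclins, checkpoint, kinetochore, spindle and separation proteins, among the 21859 protein-coding genes of the gene table, and all 40 were found there. The rule uses symbols and no measured value. Nascent RNA was measured by transient transcriptome sequencing (TT-seq), in which new transcripts take up the uridine analogue 4sU for 5 min and are then purified and sequenced by strand.

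All libraries came from the feeder-free E14 mouse embryonic stem (ES) cell line, grown with LIF and inhibitors of GSK and MEK and carrying the plant auxin receptor osTIR1. In SPT16_AID_V5 cells, SPT16, the large subunit of the histone chaperone FACT, carries an auxin-inducible degron and a V5 tag, so that the auxin 3-IAA leads to its degradation. Clone1 and Clone2 are 2 homozygous clones of that line, and Untagged cells carry osTIR1 alone. Each of these 3 lines was kept for 24 h in 3-IAA, dissolved in ethanol, or in 0.1% ethanol (EtOH), with 3 libraries in each of the 6 groups and 18 in all. The labels give the 3-IAA dose as 500 nM, whereas the methods give a micromolar dose of the same figure.

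The value used for each gene is the authors' mean normalized count, which pools all 18 libraries, 6 of them depleted of SPT16 and 12 not. It gives no library on its own, so neither the spread between libraries nor the change on SPT16 depletion was analysed here, and every statement below describes 1 pooled level per gene. The other columns of the table hold the authors' own comparison and were not used. To compare genes, the mean was divided by the length of the gene's merged exons in kilobases (per exonic kb) and, as the other scale, by the length from gene start to gene end (per span kb). It is not stated whether reads were counted over exons or over whole genes, and both scales were therefore computed, with the level per exonic kb given for every member and the level per span kb for some.

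A mitotic cell is driven by cyclin-dependent kinase 1 bound to cyclin B, which is switched on by CDC25 phosphatases and helped by Polo and Aurora kinases. Kinetochores tie chromosomes to spindle microtubules, and the spindle checkpoint holds back the anaphase-promoting complex until each kinetochore is attached. That complex then marks securin and cyclin B for destruction, separase cuts cohesin, and the central spindle and the contractile ring divide the cell. ES cells divide fast, with short gap phases. Many of these genes share a mode of control: the MuvB complex binds the cell cycle genes homology region (CHR), near the start site, often beside CCAAT boxes bound by NF-Y.

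The promoters below show those letters in members that hold both motifs, and in the members of highest and lowest upstream antisense RNA. Each is the reference sequence of RefSeq, build GRCm38.p6, from the 250 bases before the start, written 5′ to 3′ on the gene's own strand and left out where it runs into an exon of an annotated mRNA. Capitals mark CHR, CCAAT box, GC box and E2F-like letters on either strand. Cdk1 (chr10:69352913-69353162, minus strand) has the highest level per exonic kb among the printable members with both motifs and is shown from base -250 to base -1. Top2a (chr11:99024200-99024439, minus strand, bases -250 to -11) and Ccnb2 (chr9:70421555-70421804, minus strand, bases -250 to -1) follow in that order and hold 6 and 3 CCAAT matches. Anln (chr9:22389212-22389456, minus strand, bases -250 to -6) had the highest upstream antisense RNA. Kif18a (chr2:109280488-109280608, plus strand, bases -250 to -130) had the lowest, and its printed bases hold none of the motifs. They lie downstream of the first exon of Mettl15, a neighbouring gene on the opposite strand that starts 10 bases inside Kif18a.
Cdk1: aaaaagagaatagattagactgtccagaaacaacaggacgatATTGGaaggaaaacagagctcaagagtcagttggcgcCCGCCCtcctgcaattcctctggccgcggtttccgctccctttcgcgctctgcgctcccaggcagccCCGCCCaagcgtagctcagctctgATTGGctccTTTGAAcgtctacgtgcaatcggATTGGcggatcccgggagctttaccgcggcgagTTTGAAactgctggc
Top2a: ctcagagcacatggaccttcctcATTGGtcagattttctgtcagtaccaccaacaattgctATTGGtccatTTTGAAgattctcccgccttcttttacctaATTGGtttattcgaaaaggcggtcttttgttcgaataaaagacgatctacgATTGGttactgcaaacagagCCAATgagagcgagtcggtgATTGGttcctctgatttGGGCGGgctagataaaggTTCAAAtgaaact
Ccnb2: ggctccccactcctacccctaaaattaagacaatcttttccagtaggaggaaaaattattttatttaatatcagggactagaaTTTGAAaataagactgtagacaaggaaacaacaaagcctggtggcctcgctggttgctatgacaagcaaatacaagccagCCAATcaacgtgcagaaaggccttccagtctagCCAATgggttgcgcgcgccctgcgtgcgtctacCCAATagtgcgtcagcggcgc
Anln: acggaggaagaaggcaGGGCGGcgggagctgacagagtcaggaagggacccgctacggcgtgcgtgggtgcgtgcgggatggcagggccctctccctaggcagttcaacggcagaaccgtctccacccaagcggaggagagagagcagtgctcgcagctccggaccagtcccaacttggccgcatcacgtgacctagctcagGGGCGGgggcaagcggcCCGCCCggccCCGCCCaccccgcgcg
Kif18a: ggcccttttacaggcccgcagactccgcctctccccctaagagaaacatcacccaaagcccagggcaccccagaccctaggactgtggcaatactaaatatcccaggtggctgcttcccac

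Mitosis genes stood high among the genes transcribed in these cells. The median member was at 1079.6 per exonic kb, against 207.5 for the 17664 genes with a mean of at least 1, which placed it at or above 82.4% of them. Per exonic kb, 29 of 40 members lay in the top 25% of genes and the other 11 in the next 25%. Per span kb the median member was at 255.9 against 38.9, and 37 of 40 members lay in the top 25%. In bulk RNA, a larger share of cells that transcribe a gene and more transcription per cell cannot be told apart. All 40 members were above the median of all genes on both scales, and 12 per exonic kb and 20 per span kb were in the top 10%. The highest member exceeded the lowest 12.5-fold per exonic kb and 15.3-fold per span kb.

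Read depth limits these levels little. The smallest means in the table recur at 18 values, from 0.0216 to 0.115, which equal what 1 read in 1 library adds. From the largest of these, the 95% limit of counting error on a member's mean was at most 0.475% for Ect2 and at most 2.16% for Pttg1, with the rest between. These limits leave out the spread between libraries, which is not known here.

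**Figure D1:**
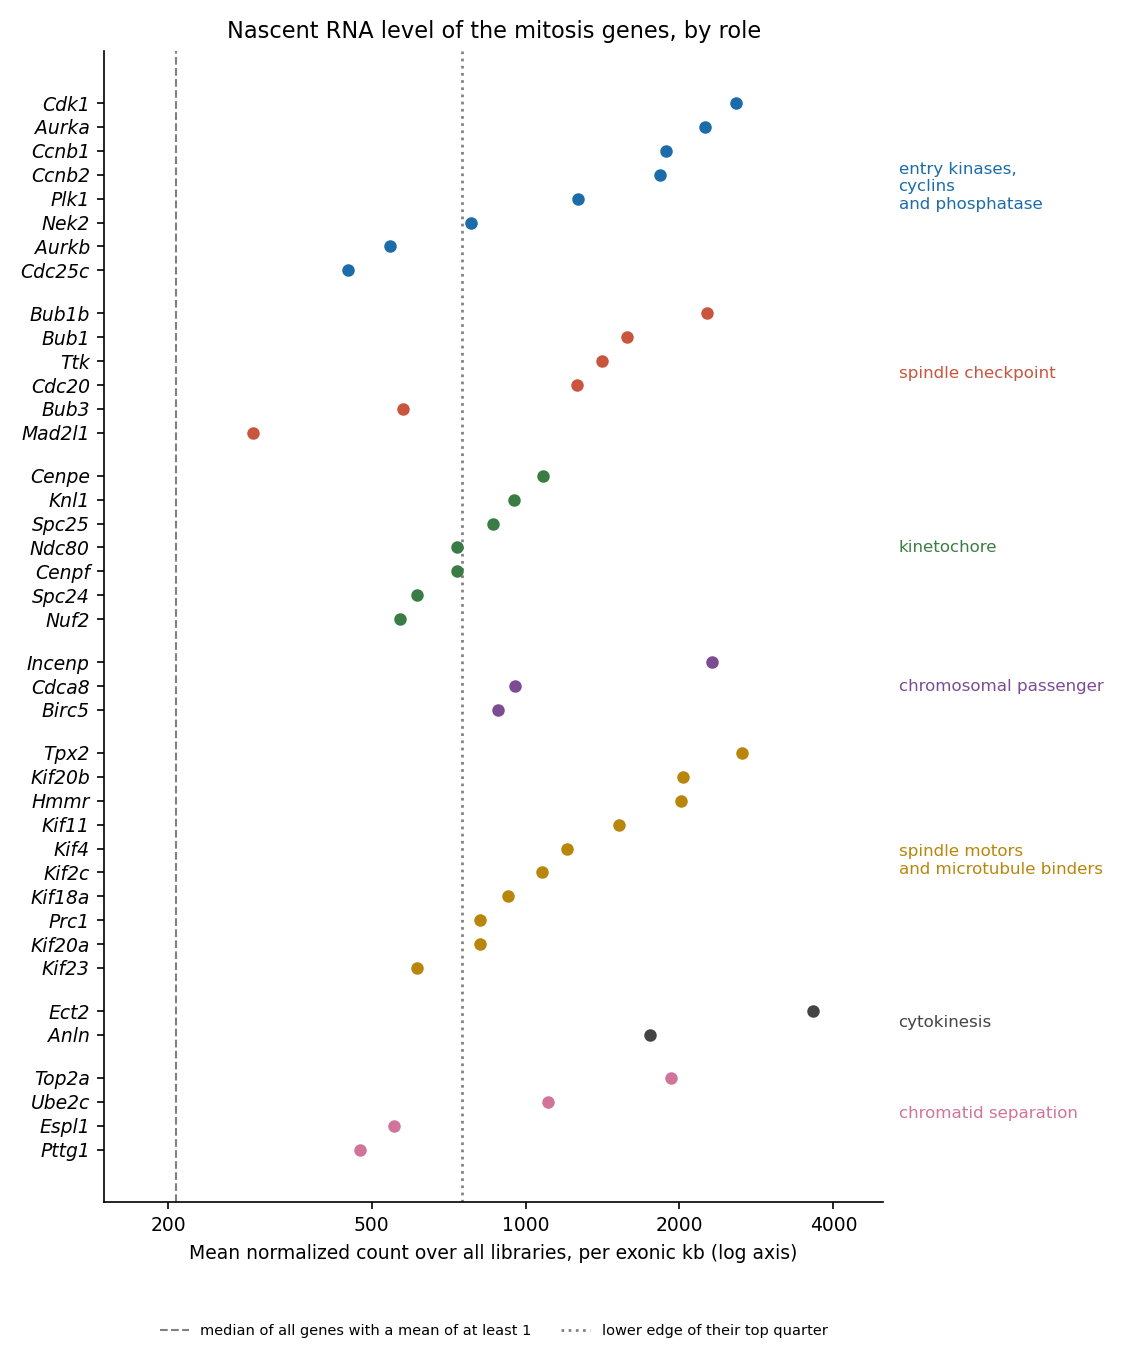
Mean normalized count over all 18 libraries per exonic kb (log axis) of the 40 mitosis genes, grouped by role. Points are single genes, and the 95% counting limits (at most 2.16%) are smaller than the points. Dashed and dotted lines mark the median (207.5) and the lower edge of the top 25% (751.8) of genes with a mean of at least 1, and all 40 points lie right of the dashed line.

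Kinases and cyclins of mitotic entry had a median of 1550.5 per exonic kb, and 6 of 8 were in the top 25% of genes. Cdk1, the kinase that drives entry, had a mean of 12700.5 and the highest level of the group, 2574.1 per exonic kb. Ccnb1 (cyclin B1) had a mean of 7921.9 and 1878.6 per exonic kb, and Ccnb2 (cyclin B2) had a mean of 2808.3 and 1834.3 per exonic kb. The 2 cyclin genes thus differed 2.82-fold in mean but only 1.02-fold per exonic kb (95% counting limits 1.01 to 1.04). Per span kb, however, Ccnb1 exceeded Ccnb2 4.94-fold, and at 1000.1 it was the highest of all 40 members, ahead of Cdk1 at 713.8. The order of Cdk1 and Ccnb1 therefore turns with the scale.

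Aurka, the centrosomal Aurora kinase, had a mean of 5679.7 and 2244.0 per exonic kb. Aurkb, the Aurora kinase of the chromosomal passenger complex, had a mean of 1602.1 and 543.8 per exonic kb. Aurka exceeded Aurkb 4.13-fold per exonic kb and 1.49-fold per span kb, so that the direction held on both scales while the size did not. Plk1, the Polo kinase of entry and spindle assembly, had a mean of 2785.4 and 1266.7 per exonic kb, and Cdk1 exceeded it 2.03-fold per exonic kb and 2.67-fold per span kb. Nek2, a kinase of centrosome separation, had a mean of 3533.3 and 782.4 per exonic kb. Cdc25c, a phosphatase that activates CDK1, was the lowest of the group on both scales, with a mean of 2212.8, 449.8 per exonic kb and 119.3 per span kb.

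Spindle checkpoint genes had a median of 1334.2 per exonic kb and spanned 7.76-fold on that scale, the widest range of any group, but only 2.87-fold per span kb, where the entry kinases and cyclins spanned 8.38-fold. Bub1b (BUBR1, part of the mitotic checkpoint complex) led with a mean of 9690.0 and 2266.7 per exonic kb. The checkpoint kinase Bub1 had a mean of 6872.5 and 1578.4 per exonic kb. Bub1b exceeded Bub1 1.44-fold per exonic kb, yet per span kb their ratio was 0.999 (counting limits 0.989 to 1.01) and they could not be told apart. Ttk (MPS1, the kinase that starts checkpoint signalling) had a mean of 6937.2 and 1410.3 per exonic kb. Cdc20, the activator of the anaphase-promoting complex on which the checkpoint acts, had a mean of 2350.3 and 1258.2 per exonic kb, and with 527.9 per span kb it was the highest of the group on that scale.

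Bub3, which recruits BUB1 and BUBR1 to kinetochores, had a mean of 4033.4 and 575.7 per exonic kb. Mad2l1 (MAD2) had a mean of 2452.4, and its 292.3 per exonic kb was the lowest level of all 40 members, at or above 55.9% of genes. Both stood far higher per span kb, at 345.5 for Bub3 and 207.3 for Mad2l1, at or above 93.9% and 85.7% of genes. Annotated exons cover 8390 of the 11831 bases of Mad2l1, and 7006 of the 11674 bases of Bub3, or 70.9% and 60.0%, the highest such shares of the 40 members.

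Kinetochore genes had the lowest group median, 734.8 per exonic kb, and lay close together on that scale, within 1.90-fold. Per span kb they spanned 3.02-fold, more than the 2.87-fold of the spindle checkpoint genes. Cenpe, the kinetochore motor CENP-E, had a mean of 9336.1 and 1083.1 per exonic kb. Knl1, the scaffold that binds BUB proteins, had a mean of 8116.3 and 950.2 per exonic kb. Cenpf, a large protein of the outer kinetochore, had a mean of 11306.5 but, with the longest merged exons of the list (15433 bases), 732.6 per exonic kb. These 3 long genes had the largest means of the group.

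The NDC80 complex, which grips microtubules, has 4 subunits, whose genes spanned 1.52-fold per exonic kb and 3.02-fold per span kb. Spc25 had a mean of 2756.2 and 864.5 per exonic kb, and Ndc80 had a mean of 4770.8 and 734.8 per exonic kb. Spc24 had a mean of 1579.0 and 613.7 per exonic kb, and Nuf2 had a mean of 3607.3 and 568.9 per exonic kb. Ndc80 exceeded its direct partner Nuf2 1.29-fold per exonic kb and 1.44-fold per span kb. For the other pair the direction turned, with Spc25 at 1.41-fold the level of Spc24 per exonic kb and 0.69-fold per span kb.

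Chromosomal passenger genes, which bring Aurora B to centromeres and to the midzone, were all in the top 25% of genes. Incenp, the scaffold, had a mean of 10033.9 and 2317.8 per exonic kb. Cdca8 (borealin) had a mean of 4940.3 and 954.3 per exonic kb, and Birc5 (survivin) had a mean of 3002.2 and 882.5 per exonic kb. Aurkb was at 0.235 times the level of its activator Incenp per exonic kb and at 0.723 times per span kb. Per span kb Birc5 was the highest of the 3, at 462.4, and exceeded Cdca8 1.95-fold.

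Spindle motors and microtubule binders had a median of 1139.9 per exonic kb, and 9 of 10 were in the top 25%. Tpx2, which activates Aurora A on the spindle, had a mean of 12370.4 and 2644.9 per exonic kb. It stood 1.18-fold above Aurka per exonic kb and at 0.66 times Aurka per span kb. Kif20b, a kinesin of late mitosis, had a mean of 14122.1 and 2029.9 per exonic kb, and Hmmr, a spindle assembly factor, had a mean of 10938.5 and 2014.1 per exonic kb. These 2 levels overlapped in their counting limits, whereas per span kb Hmmr (341.5) was above Kif20b (264.5). Kif11 (EG5), the motor that pushes spindle poles apart, had a mean of 11388.8 and 1526.4 per exonic kb.

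The other motors stood lower per exonic kb. Kif4, a chromokinesin on the X chromosome, had a mean of 6636.8 and 1203.6 per exonic kb. As the longest gene of the list (101.5 kb) it was the lowest of all 40 members per span kb, at 65.4. Kif2c (MCAK), which takes microtubule ends apart, had a mean of 4695.0 and 1076.1 per exonic kb, and Kif18a, which aligns chromosomes, had a mean of 9093.9 and 924.9 per exonic kb. At the midzone, Prc1, which bundles antiparallel microtubules, had a mean of 6698.7 and 814.4 per exonic kb. Kif20a (MKLP2) had a mean of 3530.2 and 813.8 per exonic kb, within counting error of Prc1, but stood above it per span kb (407.4 against 307.1). Kif23 (MKLP1) had a mean of 4841.6 and 612.8 per exonic kb. The paralogues Kif20b and Kif20a reversed with the scale, at 2.49-fold per exonic kb and 0.649-fold per span kb.

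Cytokinesis genes had the highest group median per exonic kb (2696.3), over only 2 genes, and were second to the chromosomal passenger genes per span kb (311.8 against 368.1). Ect2, the exchange factor that activates RhoA at the cleavage site, had a mean of 19620.3 and 3642.8 per exonic kb, the highest mean and the highest level per exonic kb of all 40 members, at or above 97.7% of genes. Anln (anillin), which scaffolds the contractile ring, had a mean of 15858.9 and 1749.9 per exonic kb. Both were within the top 10% of genes on both scales.

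Chromatid separation genes fell into a high and a low pair per exonic kb. Top2a, the topoisomerase that untangles sister chromatids, had a mean of 17366.5 and 1926.8 per exonic kb, and at 555.8 per span kb only Ccnb1 and Cdk1 exceeded it on that scale. Ube2c, a ubiquitin-conjugating enzyme of the anaphase-promoting complex, had a mean of 2875.9 and 1106.1 per exonic kb. Espl1 (separase) had a mean of 4841.7 and 553.4 per exonic kb. Its inhibitor Pttg1 (securin) had the lowest mean of all members, 950.5, and 475.2 per exonic kb. Separase exceeded securin 1.16-fold per exonic kb and 1.09-fold per span kb.

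The order depended on the scale, for genes and for groups. Of 39 neighbouring pairs in the order per exonic kb, 11 overlapped in their counting limits and 22 changed places per span kb. Across the 40 members the levels on the 2 scales had a Spearman correlation of 0.426, against 0.892 across all 17664 genes, given as a description over genes that share the same libraries. Top2a and Ect2 led their groups on both scales. In the other 5 groups the leader changed, to Ccnb1, Cdc20, Spc24, Birc5 and Kif20a per span kb. The chromosomal passenger group had the highest median per span kb (368.1) and the kinetochore group the lowest on both scales. What held on both scales was also that no member fell below the median gene.

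**Figure D2:**
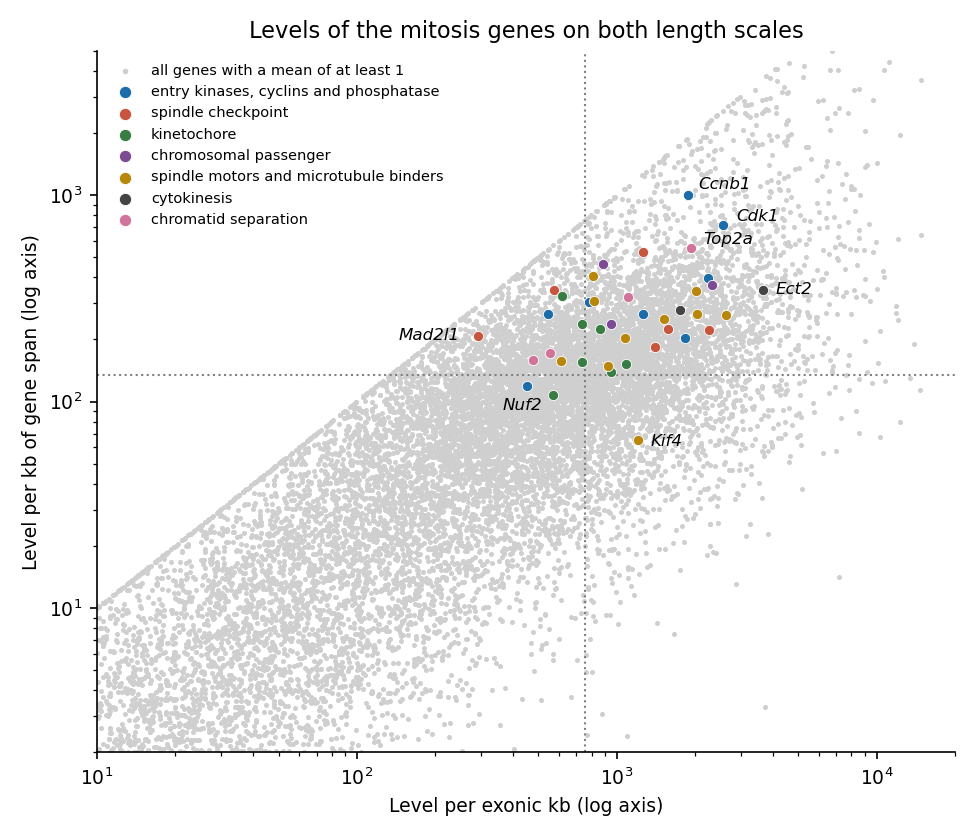
Level per exonic kb against level per span kb (log axes) of the 40 mitosis genes, coloured by role, over all genes with a mean of at least 1 in grey. Dotted lines mark the lower edge of the top 25% of genes on each scale, with 29 members right of the vertical line and 37 above the horizontal one, and the labelled Ccnb1, Kif4 and Mad2l1 show how far length moves a gene.

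Upstream antisense RNAs, or PROMPTs, are short-lived transcripts made in the opposite direction from a promoter, within 1 kb upstream. Their table held a row for 28 of the 40 members, and none for Cdc25c, Plk1, Nek2, Bub3, Cenpf, Cdca8, Kif20a, Kif4, Hmmr, Prc1, Espl1 and Ube2c. The deposited description says that windows near other protein-coding transcripts were left out. In Gencode vM21, 7 of these 12 members, and 2 of the 28 with a row, have another protein-coding gene in or within 1000 bases of the 1000 bases upstream. Aurka and Kif18a are those 2, and Cenpf has no row and no annotated gene there. PROMPT means were normalized separately from gene means, with 1 read worth 0.0266 to 0.129, so the 2 tables do not share a scale.

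Most PROMPTs of the mitosis genes were detected, at low levels. Of the 28, 25 had a mean of at least 1 (89.3%), against 51.3% of the 14405 PROMPTs of genes with a gene mean of at least 1. The PROMPTs between 1.05 and 1.47 could not be told from that limit by counting error. The comparison was not matched for gene level. The median gene mean was 5310.0 over all 40 members and 764.5 over the 17664 genes with a mean of at least 1. The median PROMPT mean was 2.31 for the 28 against 1.10. At a mean of at least 10 the shares were 28.6%, or 8 of 28, and 19.2%. The 5 highest members held 76.7% of the summed PROMPT means of all 28.

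The cytokinesis gene Anln had by far the highest PROMPT, with a mean of 138 (95% counting limit at most 5.99%), at or above 99.4% of PROMPTs. Kif11 followed with 58.8, then the passenger gene Birc5 with 45.0, the kinetochore gene Spc24 with 41.7 and the checkpoint gene Cdc20 with 36.1. Kif23, Ccnb1 and Top2a had 29.0, 15.7 and 10.1. These 8 members came from 7 different role groups, so that no role stood for the high PROMPTs. None of the 8 has another annotated gene, coding or not, in or within 1000 bases of the upstream 1000 bases. This is not particular to them, as among all 28 only Aurka, Kif18a, Incenp, Ndc80 and Ect2 have one.

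Below them lay Cenpe at 8.51, Aurkb at 5.88, Ccnb2 at 3.20, Incenp at 2.71, Mad2l1 at 2.49, Spc25 at 2.39, Cdk1 at 2.23 and Kif2c at 2.11. Most of the remaining PROMPTs were close to the median of all. Tpx2, Pttg1, Bub1, Aurka, Ect2, Ndc80, Ttk, Knl1 and Kif20b ranged from 1.05 to 1.47, where counting error alone reaches 58.0% to 68.8% and their order cannot be read. Bub1b at 0.689 and Nuf2 at 0.585 were below 1. Kif18a was lowest at 0.0986, which is between 1 and 3 reads over all 18 libraries. The upstream bases of Kif18a run into Mettl15, a protein-coding gene on the opposite strand, which is the strand of the PROMPT. Aurka has Cstf1 starting 146 bases upstream on the opposite strand. The values of these 2 rows may therefore not describe a PROMPT alone, and what the overlap does to them was not tested.

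A gene's own level and its PROMPT did not go together among the members. Ect2, with the highest gene mean, had a PROMPT of 1.15, and Spc24, with the second-lowest gene mean, had one of 41.7. The Spearman correlation of PROMPT and gene mean was -0.134 over the 28 members and 0.467 over 14405 genes, as descriptions over genes of the same libraries. Per 1000 of the gene's mean, and with the scales of the 2 tables apart, the median PROMPT was 0.516 for the members and 1.75 for all genes. Spc24 had the highest such value, 26.4, followed by Cdc20 at 15.4 and Birc5 at 15.0, all short genes of under 7 kb. Aurkb and Pttg1, also under 7 kb, were at 3.67 and 1.51. Anln was at 8.69 and Kif18a at 0.0109.

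**Figure D3:**
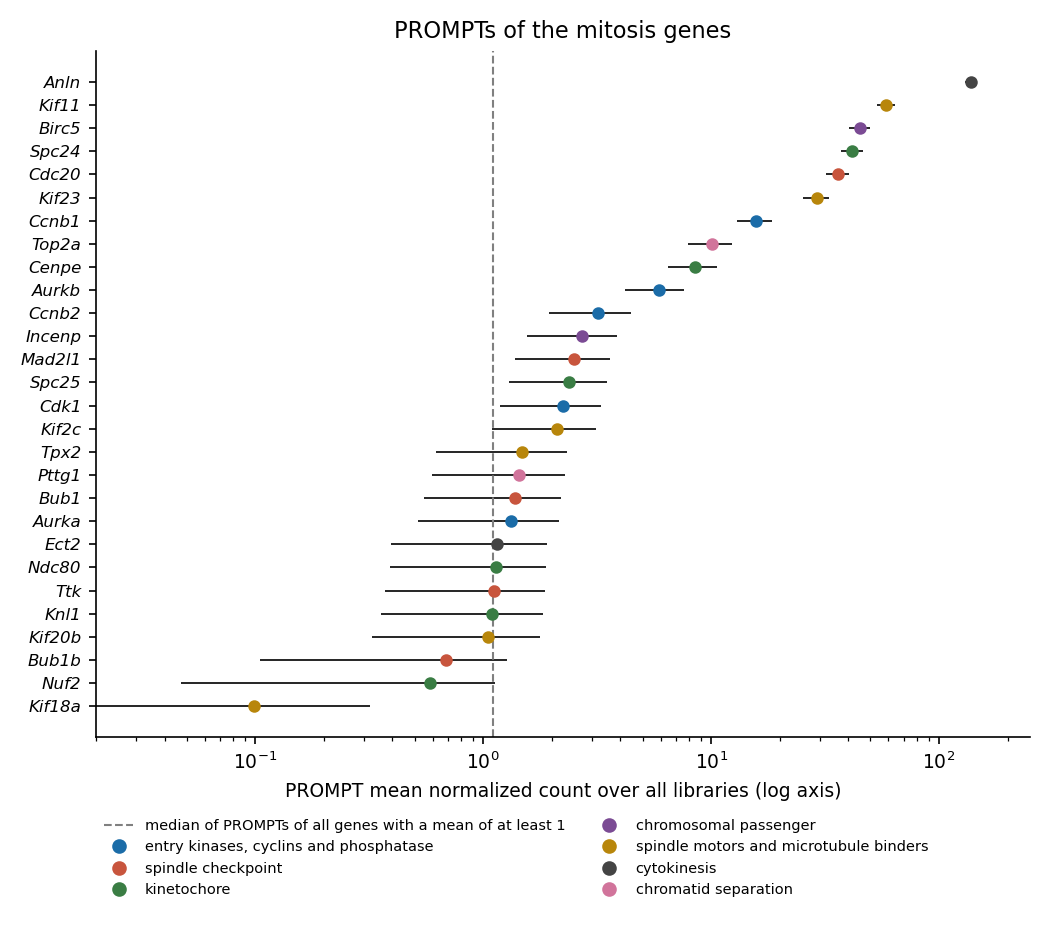
PROMPT mean normalized count over all 18 libraries (log axis) of the 28 mitosis genes with a PROMPT row, coloured by role. Bars are the 95% counting limits from the largest value of 1 read, and that of Kif18a runs past the left edge. The dashed line is the median of PROMPTs of genes with a gene mean of at least 1 (1.10), and 8 members from Top2a to Anln lie at or above 10.

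Promoter sequences were found in RefSeq for 34 of the 40 members, and for Ect2, Prc1 and Bub3 with 2 starts each. The 250 bases upstream were searched on both strands for 5 motifs. The CHR was searched as TTTGAA and the CCAAT box by its name's letters. The GC box was searched as GGGCGG, as a site type of the SP factors. The TATA box, bound by TBP, was searched as TATAAA. For E2F-like letters the word TTTCCCGC was used, and beside it the word TTTGGCGC. No motif's word contains another's, and overlapping matches were all counted. A match is a run of letters and shows no binding. The CHR was present in 11 of 34 members (32.4%), against 18.3% of 27025 genes with a promoter and 14.3% of those with a mean of at least 1. The CCAAT box was present in 24 of 34 (70.6%), against 37.5% of all and 39.6% of those with a mean of at least 1.

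Both the CHR and the CCAAT box lay upstream of 10 members (29.4%), against 7.34% of all genes and 6.29% of those with a mean of at least 1. These were Ect2, Cdk1, Top2a, Ccnb2, Kif11, Cdc20, Ube2c, Prc1, Bub3 and Espl1. In Ect2 and Ccnb2 the CHR lay farther from the start than every CCAAT box. Chromatid separation genes held both in 3 of 4. None of the 6 kinetochore and 2 passenger genes with a promoter here had a CHR. Groups this small, beside a CHR in 18.3% of all genes, cannot set roles apart. All 6 entry kinases and cyclins with a promoter here, and 5 of 6 checkpoint genes, held a CCAAT box. The median level of the 10 members with both was 1392.3 per exonic kb and 333.9 per span kb, against 1015.2 and 223.5 for the other 24.

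Most CCAAT and CHR matches lay near the start. Counted at the first start of each gene alone, since second starts repeat sites, 41 of 54 CCAAT matches and 9 of 12 CHR matches ended within 100 bases of it. Positions were not computed for other promoters, so this is not shown to be particular to the members. In the printed Cdk1 promoter the CHR nearest the start ends at base -10, and its CCAAT boxes, read on the opposite strand as ATTGG, end at -204, -76 and -44. In Ccnb2 the CCAAT boxes end at -83, -50 and -17, each 33 bases from the next, and the only CHR match ends at -162. Neighbouring CCAAT boxes also lay 32 bases apart, first base to first base, in Aurka, Ccnb1 and Spc25. A window of 31 to 34 bases was set after seeing Cdk1 and Ccnb2. Without these 2, 6 of 14 members with more than 1 CCAAT box held a neighbouring pair in it. Among the 3110 genes with more than 1 CCAAT box the share was 10.45%, and no test was made. Over the 16 members with more than 1 CCAAT box, neighbours lay between 3 (Ube2c) and 147 bases (Kif4) apart.

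The GC box was present in 24 of 34 members (70.6%), against 35.4% of all genes and 55.8% of those with a mean of at least 1. The TATA box was present in Kif2c alone (2.94% of members, against 14.3% of all genes and 9.93% of those with a mean of at least 1). The E2F-like letters were present in Kif18a alone (2.94% against 1.51% and 2.375%). Nuf2 and Pttg1 held none of the 5 motifs. In base composition the members' upstream stretches were richer in G and C, with a median of 59.6% against 52.4%, and held a median of 19 CpG dinucleotides against 6 over all 32851 promoters. Composition was not computed for the promoters of transcribed genes alone.

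**Figure D4:**
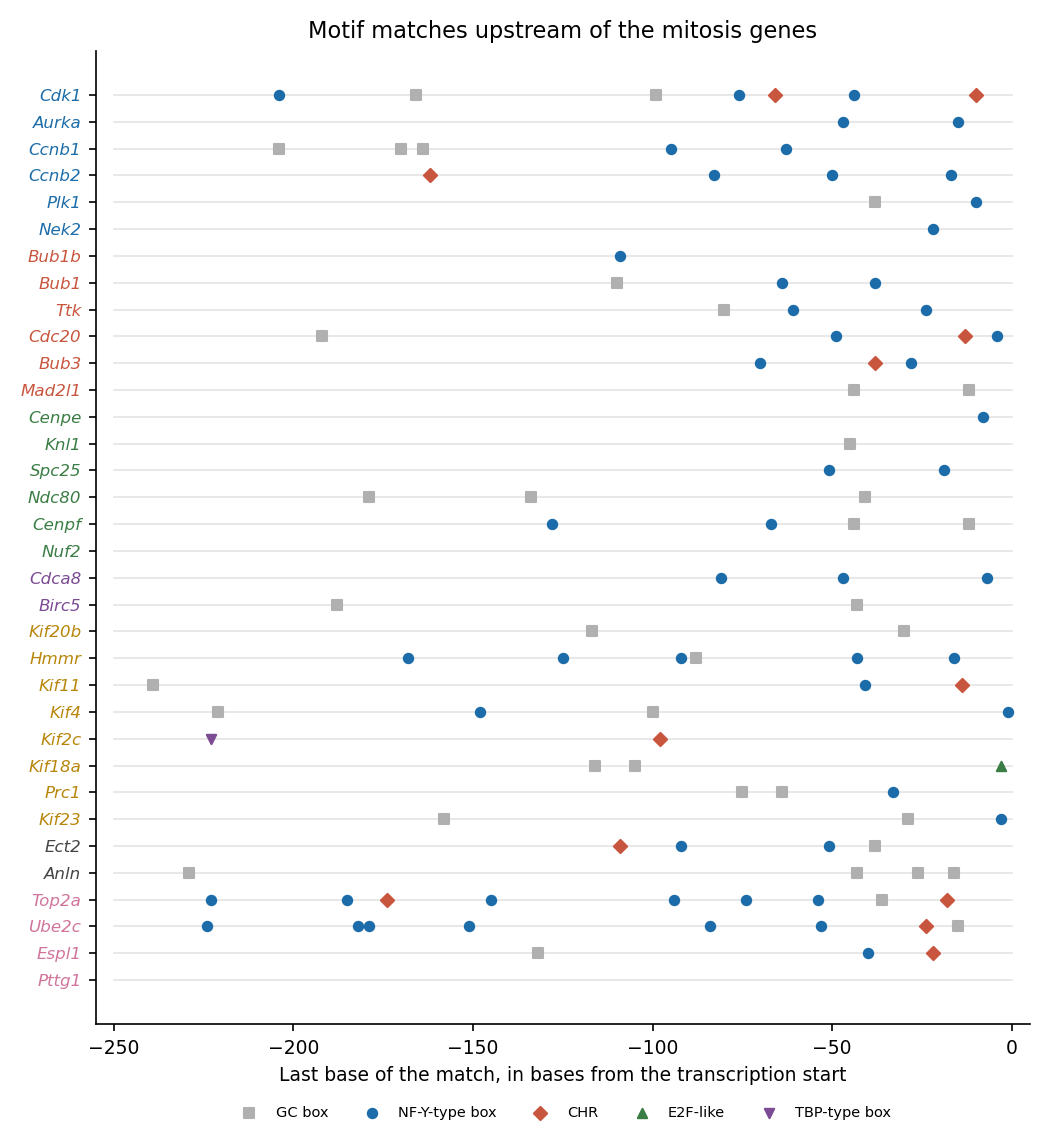
Position of each motif match upstream of the 34 mitosis genes with a RefSeq promoter (first start of each gene), as the distance in bases of the last base of the match from the transcription start. Genes are coloured and ordered by role. CHR matches (diamonds) and CCAAT boxes (circles, named NF-Y-type box in the key) lie mostly within 100 bases of the start, and the TATA box is named TBP-type box.

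Other mitotic genes, from lists that do not share members with the 40, were also in the upper part of the range. Of 48 such genes, 25 were in the top 25% of genes per exonic kb and the other 23 in the next 25%. Subunits of the anaphase-promoting complex, listed with its activator Fzr1 and the E2 enzyme Ube2s, had a median of 742.4 per exonic kb. Of these 16 genes, 7 were in the top 25% per exonic kb and 12 per span kb. They ran from Anapc15 at 277.5 to Ube2s at 2153.1 per exonic kb. Condensin genes had a median of 1219.4, with 6 of 8 in the top 25%, from Ncapg at 630.5 to Smc4 at 2440.6. The list of inner kinetochore and Mis12 complex genes also held Ska1, Ska2, Ska3 and Zwint, which belong to neither. Its median was 781.5, near the 734.8 of the kinetochore members of the 40. Of its 24 genes 12 were in the top 25%, from Cenpw at 210.0 to Cenpp at 4939.4 per exonic kb. Per span kb Cenpp was at 67.1.

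Regulators known to act on mitotic promoters (MuvB subunits, B-Myb, FoxM1 and partners) had a median of 797.2 per exonic kb over 13 genes, 8 of them in the top 25%. Lin54 was listed too but was not found among the genes, so it has no level here. Mybl2, which encodes B-Myb, was the highest at 7342.7, above all 40 mitosis genes, and Lin37 the lowest at 297.9. DNA replication genes, which act in S phase, had a median of 1413.3 over 38 genes with a mean of at least 1, above the mitosis genes per exonic kb but not per span kb (240.5 against 255.9). They ran from Rfc3 at 316.9 to Orc1 at 4739.8. Cdt1, also on that list, had a mean of 0 and was left out of these values. G1 cyclins and CDK inhibitors were lower, with a median of 375.7 and 5 of 15 in the top 25%, and ranged from Ccnd2 at 3.05 to Cdkn1a at 3843.7.

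The label of the cells held against markers in the pooled levels. With 12 libraries not depleted of SPT16 and 6 depleted, these levels do not show the state of the depleted cells alone. All 8 naive ES cell markers were in the top 25% of genes, between 2222.1 (Klf4) and 12345.1 (Zfp42) per exonic kb. Of 5 fibroblast or feeder markers all lay below the median gene, from Col3a1 at 0.207 to Pdgfrb at 173.7. The neural, endoderm and trophectoderm markers, 3 each, also lay below it per exonic kb, the highest being Nes at 171.0, whereas 2 of the 3 neural markers lay above it per span kb.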

How the data were processed

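TT-seq was carried out on 18 libraries of E14 mouse ES cells in 6 groups of 3. The authors aligned reads to mm10 with STAR, counted them by strand with featureCounts over Gencode vM25 genes and over 1 kb PROMPT windows, and normalized with DESeq2 size factors (versions not given in the sources used here). Of the 4 deposited tables, 2 were used, for genes and for PROMPTs. The deposited signal is the authors' mean normalized count over all 18 libraries, 1 value per feature. The other deposited columns hold the authors' comparison of SPT16-depleted with control libraries (shrunken log2 fold change, its standard error, p-value and adjusted p-value) and were not used, so no test was made. No table has a column for a single library.

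Lengths came from Gencode vM21 (GRCm38), and 42 genes without one (0.192%) were left out of levels. Genes with a mean of at least 1 formed the background. Limits of counting error at 95% were taken from the largest value of 1 read, a step tested on simulated data. They cover counting error only. Shares of genes are counts without a test. Promoters are RefSeq sequences, and Aurkb, Kif20a, Tpx2, Cdc25c, Spc24 and Incenp were not searched. All 40 members are named with values, and of other lists mainly the highest and lowest gene with a mean of at least 1. Printed promoters are at most 6, members with CHR and CCAAT box in order of level per exonic kb, then those of highest and lowest PROMPT, without chromosome 18 and without exons of mRNAs, which left out Ect2. The members and lists were chosen with earlier results of these data known. Tables were read with pandas 2.3.3 and numpy 2.4.6 under Python 3.11.15, and plots were drawn with matplotlib 3.10.9.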

Additional observations from a re-analysis of the deposited data

How the results depend on the processing

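The members' place among all genes held under every alternative tried for it. Between 25 and 37 members were in the top 25%, against 29, with the fewest when genes with a mean of at least 10 formed the background. The median member's percentile lay between 79.9 and 89.9. Of 26 alternatives, 20 stayed within 1.5 times the reported value. With a PROMPT mean of at least 10 in place of 1, 8 members remained of 25, by the construction of the limit. On the gene's own strand alone, 7 members held a CHR, against 11, and the shares of all genes fell to 10.3% for the CHR and 21.5% for the CCAAT box. Per span kb, 11 of 40 members kept their rank within their role group, and 12 anaphase-promoting complex genes were in the top 25%, against 7 (an alternative chosen after seeing the data). A pseudocount of 1 gave a median PROMPT of 0.652 per 1000 of the gene's mean.

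No paired analysis was possible because the deposited values pool all libraries, and for the same reason leaving out a replicate was not done. Depth limits the weak PROMPTs only. The counting limits do not cover the spread between cultures, and levels pool depleted and control cells.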
